A study of Mus musculus with 2 samples.

Results

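The genes described here encode the factors that start and extend protein chains on the cytosolic ribosome, the eukaryotic initiation factors (Eif genes) and elongation factors (Eef genes), with the kinases, binding proteins and enzymes that share their names. They were chosen by name: every row of the array table with a single gene symbol that starts with Eif or Eef and a number, without Eif2s3x, Eif2s3y and pseudogenes. This gave 55 genes on 56 rows, of 30138 genes named on a row of their own. The samples were corneal epithelium of C57BL/6 mice of both sexes, 8 weeks old, anaesthetised with ketamine and xylazine, with no genetic change named in the labels. For one array the whole epithelial sheet inside the limbus had been taken off with a 0.5 mm rust ring remover, and the regrown sheet was harvested some 48 hours later, when 10% of the wound was still open (injured). The other array held epithelium of the fellow eyes, which had not been wounded and were harvested together with the injured ones (uninjured). How many mice went into each array is not stated.

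Protein synthesis begins when eIF2 brings the initiator tRNA to the small ribosomal subunit, eIF3 and the eIF1 proteins hold that subunit open, and eIF4F (the cap-binding protein eIF4E, the scaffold eIF4G and the helicase eIF4A) places it on the capped end of an mRNA. Elongation then runs on eEF1A, which delivers aminoacyl-tRNAs, and eEF2, which moves the ribosome forward. Cells slow the process through kinases that phosphorylate eIF2, through proteins that sequester eIF4E and through a kinase of eEF2. In the corneal epithelium, cells that close a wound spread, divide and rebuild the layer, all of which draws on new protein.

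The values are log2 intensities, so a difference of 1 is 2-fold, and all differences are injured minus uninjured. Each group is 1 array, which gives no spread and no test, so every difference is without a replicate check and genes were counted by size alone, at 2-fold or more. The one error that can be read from the table is the disagreement between different rows of the same gene, whose differences had an SD of 0.247 over 477 rows of 224 genes. This SD comes from within the same 2 arrays. It holds no variation between animals, harvests or repeated arrays, so it is not a noise limit for a difference. A gene was measured when its brighter value was at or above 5.44, the median of the whole table. Of the 55 genes 54 were measured, all with both values above that level. The exception was Eif2c5, which RefSeq lists as a non-coding gene, at 3.83 injured and 3.95 uninjured. A second row of Eif3d, at 5.31 injured and 5.25 uninjured, was also below it.

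The tissue label was set against marker genes. The corneal keratin Krt12 was at 10.85 injured and 14.07 uninjured, the basal keratin Krt5 at 13.69 injured and 13.85 uninjured, and Pax6, the transcription factor of the eye, at 9.31 injured and 10.63 uninjured. Krt14, a keratin of basal cells, was at 13.38 injured and 11.16 uninjured. Of 5 measured corneal markers 1, Krt14, was at least 2-fold higher and 3 were at least 2-fold lower. The stromal genes Kera and Lum, the leukocyte genes Ptprc and S100a8 and the endothelial gene Pecam1 lay below the low-signal level in both arrays. Of these, S100a8 was at 5.32 injured, close to that level, and 3.77 uninjured, and Ptprc at 4.39 injured and 4.29 uninjured. The other stromal markers were measured, with Col1a1 at 7.18 injured and 7.29 uninjured, Col1a2 at 6.53 injured and 6.66 uninjured and Dcn at 4.77 injured and 6.09 uninjured, the last at least 2-fold lower. The endothelial gene Cdh5 was at 5.55 injured and 5.48 uninjured. The conjunctival keratins Krt13, at 11.77 injured and 12.06 uninjured, and Krt4, at 11.98 injured and 11.85 uninjured, were bright in both arrays, and the goblet cell gene Muc5ac was at 5.81 injured and 7.07 uninjured. The platelet gene Ppbp was at 13.04 injured and 5.86 uninjured, and the other measured blood marker, Pf4, at 6.54 injured and 5.98 uninjured. Of 8 leukocyte markers 6 were measured, at 5.58 to 8.72 injured and 5.44 to 10.26 uninjured, with S100a9 at least 2-fold higher and Itgam at least 2-fold lower. The part of these shifts in the differences below was not tested, and in a bulk sample more cells of a type and more RNA per cell cannot be told apart.

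Most translation factor genes were slightly higher in the healing epithelium. Of the 54 measured genes 49 were above 0 and 5 below, where 58.3% of all 19162 measured genes were above 0. Their median difference was 0.34 (1.27-fold), against 0.06 for all measured genes, and their quartiles were 0.17 and 0.53. At 2-fold or more 2 were higher, the cap-binding protein gene Eif4e3 and the tRNA synthetase scaffold gene Eef1e1, and 2 were lower, the kinase genes Eef2k and Eif2ak4. These are shares of 3.70% each way, close to the background of 4.2% of all measured genes on the higher side and 3.92% on the lower side (8.12% for both sides). Among genes at or above the 75th percentile of signal, which 51 of the factor genes reach, the factor genes had 2 on each side, where the background was 6.21% higher and 5.77% lower, and 46 above 0, where it was 54.9%. The 1.5-fold threshold was passed by 9 on the higher side (background 11.3%) and by 2 on the lower side (background 8.82%). Most factor genes thus differed by a small amount and in one direction. The differences of 31 factor genes were above the SD between rows of a gene, where 26.4% of all measured genes were above it. Those of 21 factor genes were smaller than it in size, and those of 2 lay below minus that SD.

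**Figure D1:**
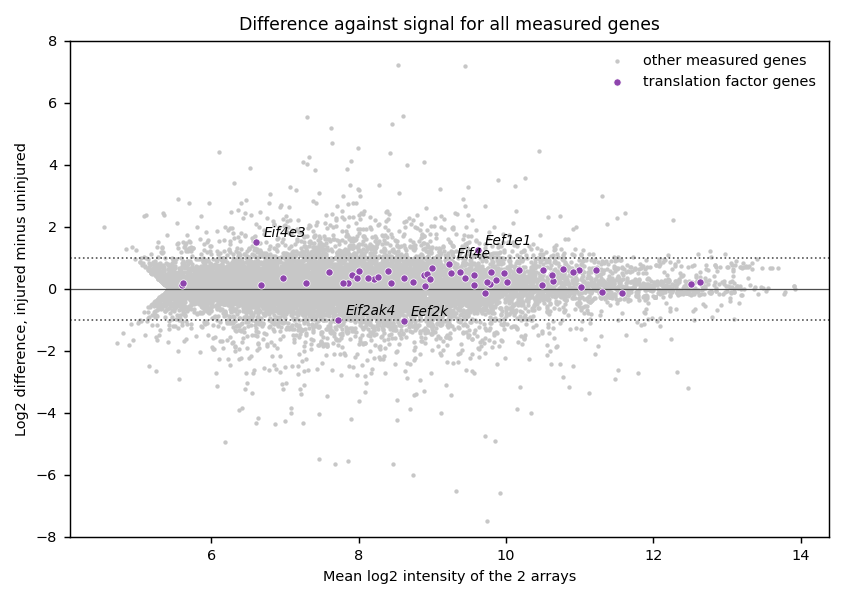
Log2 difference (injured minus uninjured, vertical axis) against the mean log2 intensity of both arrays (horizontal axis) for all 19162 measured genes in grey and the 54 translation factor genes in purple; dotted lines mark 2-fold. Of the purple points 49 lie above 0, and 4 lie past a dotted line.

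Genes of the eIF4F cap-binding complex held the highest member. Eif4e3, which encodes a divergent member of the eIF4E family, was at 7.36 injured and 5.86 uninjured, a difference of 1.496 (2.82-fold) that was above those of 98.4% of all measured genes. Its uninjured value was near the low-signal level. Eif4e, the main cap-binding protein, was at 9.63 injured and 8.83 uninjured (0.80, 1.74-fold), the third highest of the 54 genes. Of the 9 measured genes of the complex and its helpers 8 were above 0, with a median of 0.37.

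The RNA helicase gene Eif4a1 was at 10.22 injured and 9.72 uninjured, and Eif4b, whose product stimulates that helicase, at 10.84 injured and 10.41 uninjured. Both were higher in the injured array, by 0.50 and 0.43. Eif4e2, a cap-binding protein known mainly as a repressor, differed by 0.37. Of the scaffold genes, Eif4g1 had no row under that symbol, so its level is not known here, and the measured ones were nearly level. Eif4g3 differed by 0.20. Eif4g2, whose product lacks the eIF4E-binding site, was the lowest of the group at 11.25 injured and 11.36 uninjured (-0.11). Eif4h, a second helicase cofactor, differed by 0.13 and the germ-line form Eif4e1b by 0.11, the last at 5.65 injured and 5.54 uninjured, close to the low-signal level. Eif4a3l1, a copy of the exon junction helicase gene Eif4a3, differed by 0.13.

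**Figure D2:**
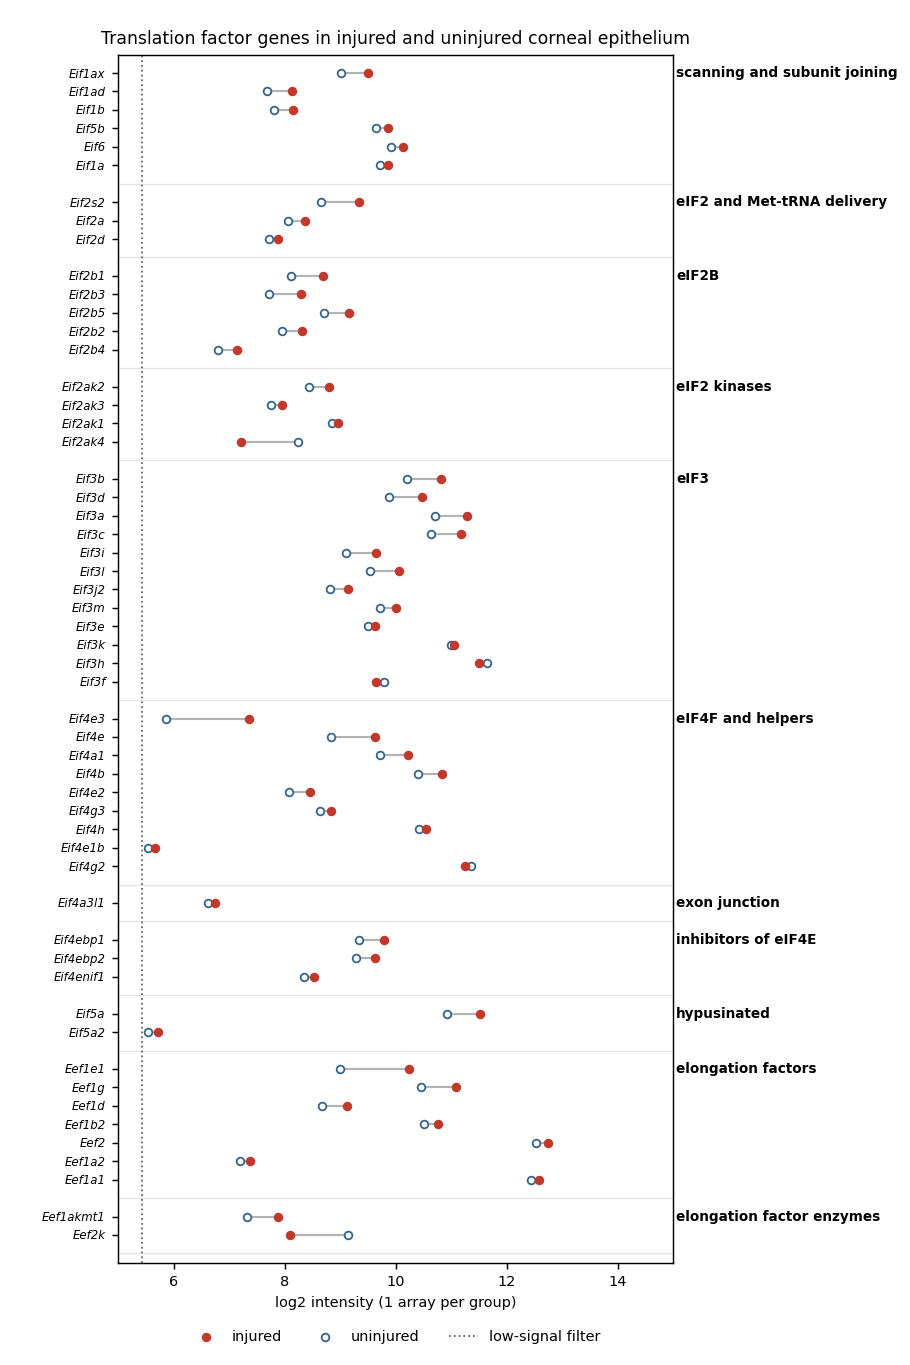
Log2 intensity (horizontal axis) of the 54 measured genes in the injured array (filled red) and the uninjured array (open blue), 1 array each, sorted by role and by difference within a role; the dotted line is the low-signal level of 5.44. The red point is on the right for 49 genes, and the widest gaps are those of Eif4e3, Eef1e1, Eef2k and Eif2ak4.

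The RNA of genes whose products hold eIF4E back was not lower, and the proteins themselves were not measured. Eif4ebp1, which encodes the eIF4E-binding protein released by mTOR signalling, was at 9.79 injured and 9.34 uninjured (0.45), and Eif4ebp2 at 9.62 injured and 9.28 uninjured (0.35). Eif4enif1, which carries eIF4E into the nucleus, was at 8.52 injured and 8.35 uninjured (0.17). All of these were less than 2-fold apart, with a median of 0.35 close to that of the whole set.

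The promoter of Eif4e is shown because it holds CACGTG at 2 places. This is the E-box bound by Myc with its partner Max and by other factors of that family. Myc itself was at 9.72 injured and 8.69 uninjured (1.04), and a part of Myc in the differences described here was not tested. The sequence is RefSeq's for GRCm38.p6, the plus strand at chr3:138527018-138527267, and ends at the base before the downstream of the listed starts of the gene. The 250 bases before the other listed start of Eif4e held CACGTG at 0 places. Capitals mark CACGTG, which reads the same on both strands.
Eif4e: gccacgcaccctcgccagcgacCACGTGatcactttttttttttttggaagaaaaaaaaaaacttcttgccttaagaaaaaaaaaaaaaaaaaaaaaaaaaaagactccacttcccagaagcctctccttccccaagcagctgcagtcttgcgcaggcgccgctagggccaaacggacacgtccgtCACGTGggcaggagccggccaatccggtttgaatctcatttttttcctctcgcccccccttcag
RefSeq windows from 250 bases before to 50 after a start were matched for 40 of the 54 genes, and CACGTG was the one motif searched. It was in a window of 11 of them (27.5%), against 1274 of 12047 measured genes with a window (10.6%). Eif4e was not alone in having 2 sites: Eif5a2 (0.18) also had 2 in a window, and Eif5a (0.61) had the motif in 2 windows. The windows also differed in base composition, with a median G+C content of 61.7% for the factor genes and 52.7% for all 32851 windows listed. The latter were not limited to measured genes, so they are a different background from that of the motif share. The 11 genes with the motif had a median difference of 0.22, with a range of -1.05 to 0.80. The 29 without it had a median of 0.35. Whether the motif has a part in these differences was not tested.

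The sites in other promoters are printed with 17 bases on each side, to show a bright elongation factor, the kinase that was lower, the eIF3 subunit that was lowest and a subunit of eIF4F. The coordinates in GRCm38.p6 are chr10:81176571-81176610 (plus strand) for Eef2, chr7:120842783-120842822 (plus) for Eef2k, chr7:108934330-108934369 (plus) for Eif3f and chr11:69672590-69672629 (minus) for Eif4a1.
Eef2: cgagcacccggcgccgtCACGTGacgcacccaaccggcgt
Eef2k: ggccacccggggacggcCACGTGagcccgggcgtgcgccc
Eif3f: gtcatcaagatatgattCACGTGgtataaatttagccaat
Eif4a1: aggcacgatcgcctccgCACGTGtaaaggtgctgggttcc
These genes spanned -1.05 for Eef2k, -0.15 for Eif3f, 0.22 for Eef2 and 0.50 for Eif4a1, so CACGTG stood in promoters of higher and of lower genes. A match describes these letters in a window, and is neither a binding site nor a cause.

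The subunit genes of eIF3, the large scaffold that keeps the ribosomal subunits apart and recruits eIF4F, had differences from -0.15 to 0.62. Of 12 measured subunit genes 10 were above 0, with a median of 0.43. Eif3b was the highest, at 10.81 injured and 10.20 uninjured (0.62). It was followed by Eif3d at 10.47 injured and 9.88 uninjured (0.60) and Eif3a, the largest subunit, at 11.29 injured and 10.70 uninjured (0.59). With Eif3c (0.54), Eif3i (0.54) and Eif3l (0.53) they form 6 genes within less than 0.1 of each other, a grouping made after the values were seen. The next gene down was Eif3j2 (0.33), which has a near-identical copy, so that the share of its signal from each is uncertain.

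The other subunits differed little. Eif3m was at 10.01 injured and 9.72 uninjured (0.29), Eif3e at 9.62 injured and 9.50 uninjured (0.12) and Eif3k at 11.05 injured and 10.99 uninjured (0.05). Eif3h, at 11.50 injured and 11.63 uninjured (-0.13), and Eif3f, at 9.64 injured and 9.79 uninjured (-0.15), were slightly lower. All of these but Eif3m were within the SD between rows of a gene. The sign of Eif3k turned to -0.03 after quantile normalization.

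In human cells some mRNAs are known to begin with a terminal oligopyrimidine (TOP) tract, through which mTOR controls their translation. Among them are mRNAs of elongation factors, of the e, f and h subunits of eIF3 and of ribosomal proteins. Taken as this class here were Eef1a1, Eef1b2, Eef1d, Eef1g, Eef2, Eif3e, Eif3f and Eif3h, a list not checked to be complete. Of these 8 genes 6 were above 0, with a median of 0.18. The other 46 factor genes, which include Eef1a2 and may include further genes of the class, had a median of 0.35. The median of 44 ribosomal protein and like-named genes was also 0.18. The class was taken up after the values were seen, so these medians are a description.

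**Figure D3:**
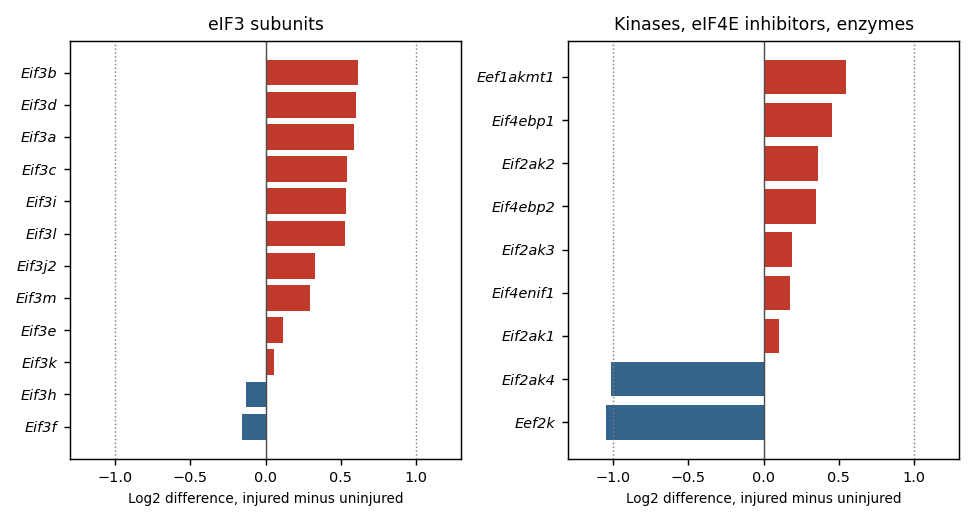
Log2 difference (injured minus uninjured, horizontal axes) of the 12 measured eIF3 subunit genes (left) and of the 9 measured eIF2 kinases, eIF4E inhibitors and elongation factor enzymes (right), in red where higher and blue where lower in the injured array; dotted lines mark 2-fold and each bar is 1 gene from 1 array per group. The 6 upper eIF3 subunits lie between 0.53 and 0.62, and of the 9 genes on the right 7 are above 0 and 2, Eef2k and Eif2ak4, lie past 2-fold on the lower side.

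The measured genes that deliver and recycle eIF2 were higher by small amounts, and the eIF2 subunit gene Eif2s1 had no row under that symbol. Eif2s2, the beta subunit of eIF2, was at 9.33 injured and 8.66 uninjured (0.68). Eif2a and Eif2d, whose products can bring tRNA to the ribosome without eIF2, differed by 0.30 and 0.17. The 5 genes of eIF2B, the exchange factor that reloads eIF2 with GTP, were all above 0, from 0.34 for Eif2b4 (7.14 injured, 6.80 uninjured) to 0.58 for Eif2b1 (8.69 injured, 8.11 uninjured), with a median of 0.46. Eif2b3 differed by 0.57, the catalytic subunit Eif2b5 by 0.46 and Eif2b2 by 0.36.

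The kinases of eIF2 divided. Eif2ak4, also known as GCN2, the sensor of uncharged tRNA, was at 7.22 injured and 8.24 uninjured, a difference of -1.02 (2.02-fold lower). Eif2ak2 (PKR), the sensor of double-stranded RNA, was at 8.79 injured and 8.43 uninjured (0.36). Eif2ak3 (PERK), the sensor of the endoplasmic reticulum, was at 7.95 injured and 7.76 uninjured (0.19), and Eif2ak1, the haem-regulated kinase, at 8.95 injured and 8.85 uninjured (0.10). Thus 1 of the 4 was past 2-fold, by a narrow margin: with a constant added on the linear scale it was at -0.95.

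Genes of the integrated stress response, the programme that eIF2 phosphorylation sets off, had a median of 0.24 over 16 measured of 17 listed. Their central transcription factor Atf4 was at 9.38 injured and 9.19 uninjured (0.19), its partner Ddit3 at 7.15 injured and 7.23 uninjured (-0.09), and the eIF2 phosphatase subunit Ppp1r15a at 7.02 injured and 7.18 uninjured (-0.15). At least 2-fold higher were 2 (12.5%, against 4.2% of all measured genes), the asparagine synthetase Asns (2.10) and the cystine transporter Slc7a11 (1.36). The uninjured value of Slc7a11, 4.59, was below the low-signal level, and its difference was 0.99 once a constant was added. None was at least 2-fold lower, and the lowest was Chac1, at 7.61 injured and 8.49 uninjured (-0.88).

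All 6 measured genes for start codon scanning and subunit joining were above 0 and less than 2-fold apart, with a median of 0.28. The highest was Eif1ax, which helps the small subunit scan for the start codon, at 9.50 injured and 9.004 uninjured (0.50). The lowest was its autosomal relative Eif1a, at 9.86 injured and 9.72 uninjured (0.14). Between them lay Eif1ad (0.45), Eif1b (0.35), the subunit-joining GTPase gene Eif5b (0.21) and Eif6 (0.21), whose product keeps the large subunit from joining early.

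Eif5a, whose product carries the modified residue hypusine and eases the making of difficult peptide bonds, was at 11.52 injured and 10.92 uninjured (0.61). Its paralog Eif5a2 was at 5.72 injured and 5.53 uninjured (0.18), near the low-signal level. The enzymes that make hypusine differed by 0.25 (Dhps, 7.35 injured and 7.10 uninjured) and 0.21 (Dohh, 7.01 injured and 6.81 uninjured).

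All 7 genes listed as elongation factors were above 0, with a median of 0.24. Eef1e1 was the highest, at 10.23 injured and 8.996 uninjured (1.24, 2.36-fold). In spite of its name its product, also called AIMP3, is a scaffold of the complex of aminoacyl-tRNA synthetases, and its difference was above the highest of theirs: the 21 measured synthetase and scaffold genes had a median of 0.80, with 6 past 2-fold on the higher side and 0 on the lower. The highest of these were Iars (1.12), Cars (1.10), Tars (1.06) and the scaffold gene Aimp2 (1.03, and 0.99 once a constant was added).

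The elongation factors proper differed by less. Eef1g, a subunit of the exchange factor for eEF1A, was at 11.08 injured and 10.46 uninjured (0.62), and Eef1d, a second subunit, at 9.11 injured and 8.66 uninjured (0.45). Eef1b2, the third, was at 10.76 injured and 10.51 uninjured (0.24). The tRNA carrier gene Eef1a1 was at 12.58 injured and 12.44 uninjured (0.14) and the translocase gene Eef2 at 12.75 injured and 12.52 uninjured (0.22). With Eef1a2, the form of muscle and nerve, at 7.37 injured and 7.20 uninjured (0.17), these 4 stayed within the SD between rows of a gene. Eef1a1 and Eef2 lay near the upper end of the scale in both arrays, and no saturation call was used here.

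Eef2k, the kinase that phosphorylates and stalls eEF2, was the lowest of the 54 genes, at 8.09 injured and 9.13 uninjured, a difference of -1.05 (2.07-fold lower). Eef1akmt1, a methyltransferase for eEF1A, was at 7.87 injured and 7.33 uninjured (0.54). Of the enzymes that make diphthamide, the modified residue of eEF2, or hypusine, listed with the selenocysteine factors Eefsec and Secisbp2, 10 were measured, with a median of 0.04, which was 0.15 under a stricter filter on low values, and 1 past 2-fold, Dnajc24 (-1.17).

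Genes of the mTOR and MAP kinase pathways that govern these factors were not higher as a group. Of 22 listed 19 were measured, 6 of them above 0, with a median of -0.09. The list mixes genes that drive these pathways with genes that hold them back, so its median gives no direction of signalling. Mtor was at 8.45 injured and 8.48 uninjured (-0.03), and Mknk2, a kinase of eIF4E, at 9.56 injured and 10.44 uninjured (-0.88). Pdcd4, whose product binds eIF4A and blocks the helicase, was lower by the most, at 9.39 injured and 11.83 uninjured (-2.44, 5.41-fold lower). Also at least 2-fold apart were Sesn1, an inhibitor of mTOR signalling (-1.32), and Deptor, another (1.07, and 0.93 once a constant was added).

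Partners in initiation with other names had 15 of 21 measured genes above 0 (71.4%) and a median of 0.32, with quartiles of -0.06 and 0.61. The poly(A)-binding protein genes Pabpc4, at 9.47 injured and 8.07 uninjured (1.40), and Pabpc1, at 12.40 injured and 11.97 uninjured (0.43), were higher. So was Bzw2, which encodes a mimic of eIF5, at 9.66 injured and 8.04 uninjured (1.62). Paip2 (-0.72) and Paip2b (-0.44), which displace the poly(A)-binding protein, were lower by less than 2-fold. Among 11 genes of termination, rescue and recycling 0 were past 2-fold and the median was 0.26, between Gtpbp2 (-0.76) and Hbs1l (0.73). Factors of mitochondrial translation had a median of 0.08 over 14 genes (0.14 over the 10 left by the stricter filter), from -0.16 for Mtif3 to 0.89 for Gfm1, with the mitochondrial elongation factor gene Tufm at 8.77 injured and 7.97 uninjured (0.79).

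The factor genes thus stood between other groups of the protein synthesis machinery. Ribosome biogenesis and RNA polymerase I genes had a median of 1.02, and 20 of 38 passed 2-fold on the higher side and 0 on the lower, led by Npm1 (3.02-fold), Nolc1 (2.83-fold), Utp4 (2.83-fold) and Mybbp1a (2.82-fold). Aminoacyl-tRNA synthetase genes had the median of 0.80 given above. Ribosomal protein and like-named genes were listed only where named on a row of their own, which gave 45, and other ribosomal protein genes are not covered. Of the 44 measured 0 were past 2-fold, with a median of 0.18, from -0.07 for Rpl31 to 0.60 for Rpl22l1. The medians are set side by side as descriptions, since none of these differences between groups can be tested with 1 array each.

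**Figure D4:**
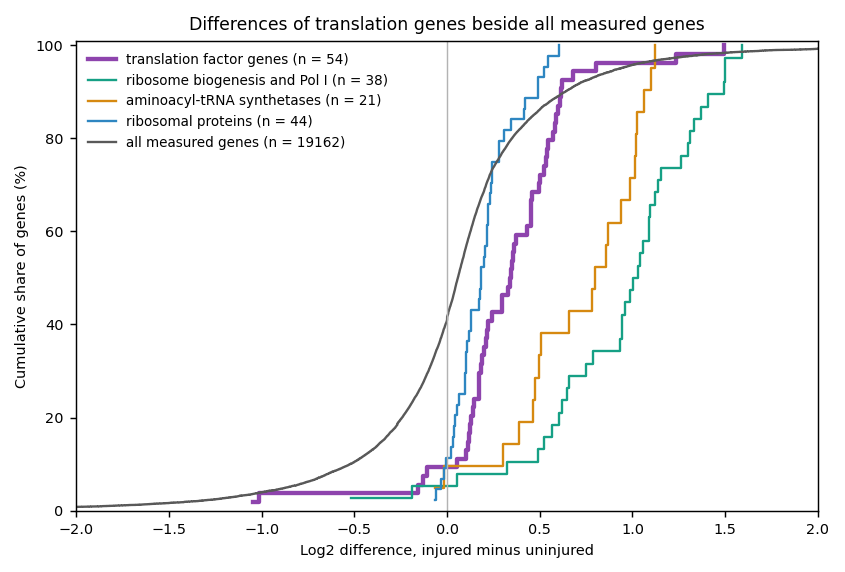
Cumulative share of genes (%, vertical axis) by log2 difference (injured minus uninjured, horizontal axis, cropped at 2 in size) for translation factor genes, ribosome biogenesis and RNA polymerase I genes, aminoacyl-tRNA synthetase genes, ribosomal protein genes and all measured genes. The curve of the translation factor genes crosses the middle at 0.34, between the ribosomal proteins at 0.18 and the synthetases at 0.80.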

How the data were processed

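The deposited table holds 65952 rows and 1 column per array. The authors' values lie between 2.54 and 14.07 and were read as log2 intensities from that range. Per the submitters' processing notes, Agilent Feature Extraction 9.1 was used. The biotin label and row identifiers shaped like transcript clusters do not match that tool. How background, probe summary and normalization were handled, and on which genome build, is not stated in the labels. The column medians differed by 0.0135, under the 0.1 set for a table already normalized, so the values were kept as deposited. Per the labels 2 µg of RNA were amplified.

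Rows were named from the platform annotation, updated through gene identifiers of RefSeq for GRCm38.p6: 30600 rows carried 1 symbol, 2146 several and 33206 are unnamed here. All 55 symbols described matched RefSeq. Of several kept rows of a gene the one with the highest mean stood for it. Calculations used Python 3.11.15 with numpy 2.4.6, pandas 2.3.3 and statsmodels 0.14.6, and were tested on simulated data. The naming rule gave members past 2-fold, the extremes of each role, the brightest 3, up to 4 genes past 2-fold (or the extremes) of each of 9 companion lists, and a fixed set. Rps6kb1 of that set is not analysed here. Any member may be named. Chac1, Paip2 and Paip2b, the TOP class and the eIF3 grouping were added after their values were seen. Members and lists were chosen with earlier results of these data known. The companion list of ribosomal proteins also takes in like-named genes such as Rpl22l1, and leaves out genes found only on shared rows. The number of arrays limits the precision.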

Additional observations from a re-analysis of the deposited data

How the results depend on the processing

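The median difference of the translation factor genes stayed between 0.33 and 0.35 under quantile normalization, equal medians, equal 75th percentiles, loess, a linear constant of 13.9 added before log2, other low-signal filters and other choices of row, and with 2 changes chosen after seeing the data: regulators left out, and pseudogene and shared rows added. The choices of row and the filter on both values could not change this median. Each measured factor gene has a single kept row, with both values above the low-signal level. The median of all measured genes stayed between 0.03 and 0.06. Over 6 of these settings 324 differences of single factor genes moved by less than the SD between rows of a gene, and 1 gene, Eif3k, changed sign. Part of this count was fixed in advance. The mean of all kept rows could not move a factor gene. Equal medians and equal 75th percentiles shift every gene by the same small amount, 0.0135 for the medians. The number of factor genes above 0 was 48 with quantile normalization and 42 of the 45 left without regulators. With the constant 1 factor gene was at least 2-fold lower in place of 2, because Eif2ak4 was at -0.95. Without regulators 0 were lower, since both lower genes are regulators.

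The threshold sets the counts. At 1.5-fold 9 factor genes, 62 companion genes and 2160 of all measured genes were higher, and 8 companion genes and 1691 of all measured genes lower. At 4-fold 0 factor genes were higher and 0 lower, 1 companion gene was higher and 1 lower, and of all measured genes 138 were higher and 151 lower. The main counts of companion genes were 31 higher and 3 lower. The higher count was 25 with the constant and 28 with quantile normalization. By list, synthetase genes had 5 with the constant and 4 with quantile normalization in place of 6, and ribosome biogenesis genes 17 and 19 in place of 20. The median of the diphthamide and hypusine list lay between 0.03 and 0.15 and that of the mitochondrial list between 0.07 and 0.14, both highest with the filter at the 75th percentile. No paired analysis was possible because each group has 1 array. No replicate could be left out for the same reason. Signal over background could not be judged, as no detection call was used.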

Other observations

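Rows left out by the naming rule carry copies or neighbours of the factor genes. Eif4a-ps4 was at 11.99 injured and 11.42 uninjured (0.57), beside 0.50 for Eif4a1, and Eif5al3-ps at 11.91 injured and 11.24 uninjured (0.67), beside 0.61 for Eif5a. Eif3s6-ps1 and Eif3s6-ps2, named for the older symbol of Eif3e, differed by 0.11 and -0.03, beside 0.12 for Eif3e. Which share of the signal on these rows comes from the parent genes was not tested. Eif1-ps3 differed by 0.27, and Eif2s3x, the gamma subunit of eIF2, by 0.27, at 10.56 injured and 10.30 uninjured.

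Of rows shared by several genes, that of Eif4a2 with the small nucleolar RNAs in its introns was at 8.68 injured and 8.85 uninjured (-0.16), where the row of its paralog Eif4a1 was higher by 0.50. The row of Eif5 with Snora28 differed by 0.45, that of Eif4a3 with Gm5576 by 0.28, that of Eif3j1 with Eif3j2 by 0.34 and that of Ankhd1 with Eif4ebp3 by -0.15. The row of Ago4, an Argonaute gene whose older symbol is Eif2c4, was at 5.94 injured and 6.80 uninjured (-0.85).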
